A study of Homo sapiens with 6 samples.

Results

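The transcripts described here are those of the proteasome, its activators and its assembly factors, chosen by symbol from the count tables of NB4 cells. All symbols made of PSMA, PSMB, PSMC, PSMD, PSME, PSMF or PSMG and a number were taken, except PSMB8 and PSMB9, which gave 46 of 23368 symbols. NB4 cells are an established line grown from a human acute promyelocytic leukemia. Maltonis, the compound tested, was synthesized from the food additive maltol. Cells were left not treated or were exposed in culture to 10 µM maltonis, from a stock made in distilled water, and total RNA was sequenced at 24 h from 3 libraries per group. The groups differ by the maltonis treatment alone in their labels, no separate vehicle group is named, and all libraries come from 1 cell line. Of 8 promyelocytic marker genes, all were above 1 CPM (counts scaled to library size) in each library, with a summed level of 14729 to 17298 CPM without treatment and 9022 to 9549 CPM with maltonis. Most of this sum was MPO (log2 fold change −0.98), while CTSG (2.34) and AZU1 (0.48) were higher after maltonis, and 5 of the 8 were lower. Of 10 markers of other lineages, 4 had no count in any library and only EPCAM was above 1 CPM in all of them, and the part of these marker levels in the results was not tested.

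The proteasome degrades proteins tagged with ubiquitin. Its 20S core is a barrel of alpha rings that gate the entry and beta rings whose PSMB5, PSMB6 and PSMB7 subunits cut the substrate, and its 19S cap has a base of ATPases that unfold the substrate and a lid that removes ubiquitin. Dedicated chaperones build the core and the base, 11S and PA200 activators can replace the cap, and PSMB8, PSMB9 and PSMB10 take the place of the cutting subunits in the immunoproteasome of interferon-exposed cells. The transcription factor NFE2L1 is known to drive many proteasome genes when degradation is insufficient. The set is mostly constitutive, but PSMB10 is an immunoproteasome subunit, PSME1 and PSME2 respond to interferon, and PSMA8 and PSMB11 belong to tissue-restricted proteasomes of the testis and the thymus.

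RefSeq promoter windows (GRCh38.p14, whereas the counts were made on hg19) matched 40 of the 46 genes in 48 windows, and PSMA7, PSMB1, PSMB6, PSMB7, PSMD4 and PSMG3 had no entry. The 250 bases before the start are shown for PSMD3 and PSMD1, the members with the largest decreases, and for PSMB10 and PSMD9, those with the largest increases. Capitals mark matches on either strand to the core of the antioxidant response element (TGAC, 3 free bases, GC), which NFE2L1 and NFE2L2 recognize, to the CCAAT box and to the interferon regulatory factor repeat (GAAA, 2 free bases, GAAA).
PSMD3, chr17:39980557-39980806, plus strand: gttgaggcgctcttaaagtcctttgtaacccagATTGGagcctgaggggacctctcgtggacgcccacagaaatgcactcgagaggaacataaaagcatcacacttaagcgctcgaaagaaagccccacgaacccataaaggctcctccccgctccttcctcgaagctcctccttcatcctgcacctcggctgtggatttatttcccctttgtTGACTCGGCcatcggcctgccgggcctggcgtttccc
PSMD1, chr2:231056617-231056866, plus strand: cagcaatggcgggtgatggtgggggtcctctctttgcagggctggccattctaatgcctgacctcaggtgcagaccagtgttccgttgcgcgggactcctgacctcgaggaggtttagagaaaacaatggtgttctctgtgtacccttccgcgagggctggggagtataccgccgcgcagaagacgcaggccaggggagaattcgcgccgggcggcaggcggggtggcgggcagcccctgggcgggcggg
PSMB10, chr16:67936851-67937100, minus strand: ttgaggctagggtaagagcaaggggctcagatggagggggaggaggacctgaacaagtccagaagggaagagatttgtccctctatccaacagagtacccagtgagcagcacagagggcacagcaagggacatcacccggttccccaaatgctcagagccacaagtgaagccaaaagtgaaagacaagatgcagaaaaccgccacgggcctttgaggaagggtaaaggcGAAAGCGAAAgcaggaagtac
PSMD9, chr12:121888540-121888789, plus strand: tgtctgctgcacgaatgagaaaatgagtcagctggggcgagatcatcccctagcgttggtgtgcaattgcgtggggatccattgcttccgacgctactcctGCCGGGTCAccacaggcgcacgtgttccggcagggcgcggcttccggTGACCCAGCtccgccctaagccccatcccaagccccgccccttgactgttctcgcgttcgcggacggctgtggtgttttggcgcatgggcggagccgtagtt
The PSMD3 window held 1 CCAAT box on the reverse strand and 1 antioxidant core, the PSMD1 window held none of the motifs, the PSMB10 window held 1 interferon repeat close to the start and the PSMD9 window held 2 antioxidant cores. Antioxidant cores were present in 12 of 48 member windows (25%) against 10.9% of all 35116 windows of this length, and CCAAT boxes in 18 (37.5%) against 32.0%. The interferon repeat, searched only after the PSMB10 window had been read, was present in 5 member windows (10.4%) against 3.02% of all windows. It lay before the start of PSMA4, PSMB4, PSMB10, PSME2 and PSMG4. The PSMB10 window that prompted the search is thus counted among the 5, so the 2 shares are no independent comparison. Of the members with an antioxidant core in this region, 3 were lower after maltonis, 2 were higher and 7 did not pass the test. Over all genes tested, 32.1% were lower and 31.9% higher. These matches are descriptions of letters, and binding was not measured.

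Most proteasome transcripts had small fold changes after maltonis, while PSMD3 and PSMD1 fell and PSMB10 rose by far more than the others. Among the 44 members with enough counts to be tested, 15 were lower (34.1%) and 5 higher (11.4%) at a false discovery rate (FDR) under 0.01 in edgeR's quasi-likelihood test, adjusted over 13209 genes. Over all genes tested, 32.1% were lower and 31.9% higher, so the share of lower members was near that of all genes. The median log2 fold change of the members was −0.15, beside 0.01 for all genes tested, and the median size of the change was 0.23 against 0.59. All genes tested include many at lower levels than the members. Among 4330 genes at the level of most members (mean log2 CPM of 5.65 to 8.03), 36.1% were lower and 28.1% higher. The median log2 fold change of these genes was −0.061. Beyond a fold change of 2.50, in either direction, only PSMD3 was lower (10.4% of all genes) and no member was higher (9.96% of all genes). The 3 libraries of a group lay entirely below the other group in 19 members and above it in 6, and over all genes in 37.8% and 38.8%. The summed level of all members went from 7015 ± 120.1 to 5966 ± 204 CPM (SD, n = 3) (exact permutation test, p = 0.1). The counts depend on the scaling and on single libraries: with total counts as scaling, which moved the median log2 fold change of all genes from 0.01 to 0.13, 9 members were lower and 6 higher, beside 27.6% and 37.1% of all genes. Without untreated replicate 2, 10 members were lower and 2 higher, beside 28.4% and 27% of all genes. Without treated replicate 2 the member counts were the same, beside 28.7% and 26.4% of all genes. In bulk RNA, fewer cells that express a gene and less RNA per cell cannot be told apart.

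**Figure D1:**
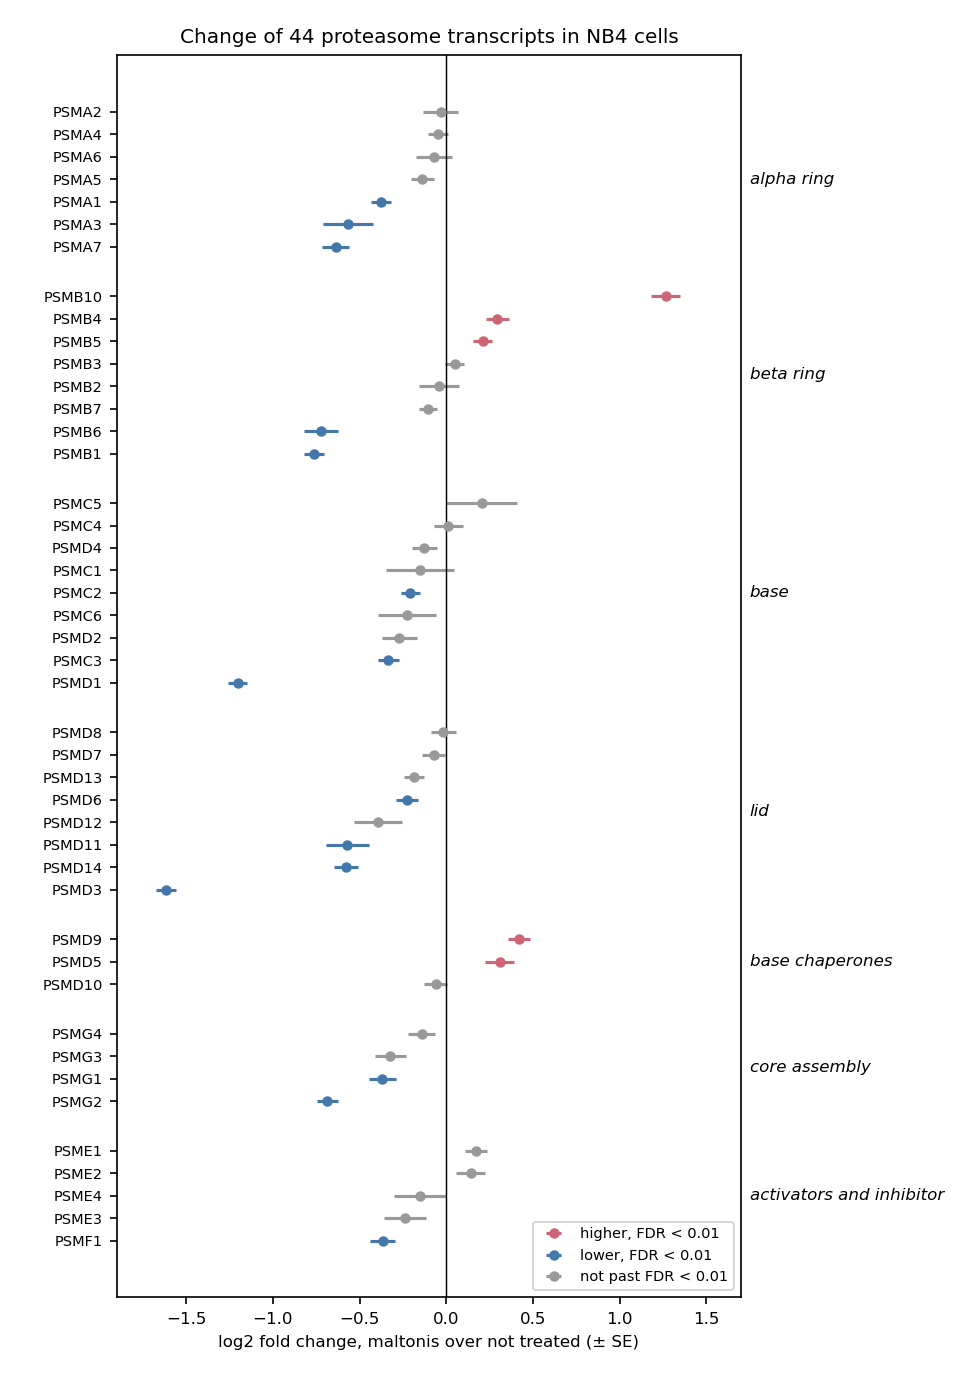
Log2 fold change with its SE (x axis) of the 44 tested members (y axis, grouped by subcomplex), from 3 maltonis-treated against 3 not treated libraries. PSMD3 (−1.62) and PSMD1 (−1.20) lie far to the left of the other members and PSMB10 (1.27) far to the right.

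PSMA8 had no count in any library and PSMB11 had at most 6 counts, so neither was tested. At these depths of 18492154 to 38205483 counts per library, 3 counts correspond to 0.0828 to 0.160 CPM, a limit that covers counting error only. A library code of unstated meaning parts replicate 1 from replicates 2 and 3 in both groups. All 20 called members changed in the same direction within replicate 1 and within replicates 2 and 3, and in a fit of replicates 2 and 3 alone 18 of the 20 were past the threshold. With the library code as a factor, PSMD2, PSMD12, PSMD13, PSME3 and PSMG3 passed as well. That gave 20 lower and 5 higher members, beside 35.9% and 35.8% of all genes. The p-values from edgeR rest on the spread between libraries within both groups, moderated toward that of other genes. The main fit has no covariate, so this spread includes any difference between replicate 1 and replicates 2 and 3. The study describes the 3 libraries of a group as biological replicates.

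The lid of the 19S cap, which holds the deubiquitinating enzyme, had the largest proportional decrease in summed level of the subcomplexes, a rank that rested on PSMD3. The sum of its 8 genes went from 1388 ± 46.9 to 977 ± 35.2 CPM (SD, n = 3), a change of −29.6%, and without PSMD3 from 1037 ± 40.6 to 863 ± 35.2 CPM (SD, n = 3), a change of −16.8%. That was smaller than the changes of the factors that assemble the core (−25.9%), of the base with PSMD1 (−20.1%) and, narrowly, of the alpha rings (−16.9%). The base without PSMD1, its own largest decrease, changed by −10.7%. In a two-sided exact permutation test each of these sums reached p = 0.1, which is the lowest value possible with 3 libraries per group. Of the 8 genes, 4 were lower and none higher, beside 32.1% and 31.9% of all genes, with a median log2 fold change of −0.31. Without untreated replicate 2, treated replicate 1 or treated replicate 2, 2 were lower, beside 28.4% to 30.7% of all genes. PSMD3, a scaffold subunit of the lid, stood at 360.3, 364 and 331 CPM (not treated) against 115, 113 and 116 CPM (maltonis) (log2 fold change −1.62, SE 0.0597, edgeR adjusted p = 9.63e-08). Its treated level was 0.326 of the untreated level, the groups lay far apart, and the log2 difference was −1.64 in replicate 1 and −1.60 in replicates 2 and 3. PSMD14, the metalloprotease that removes ubiquitin chains from the substrate, stood at 209.9, 215 and 205 CPM (not treated) against 128, 142 and 151 CPM (maltonis) (log2 fold change −0.58, SE 0.0698, edgeR adjusted p = 7.76e-05). The treated libraries of PSMD14 were all below the untreated ones. PSMD11 (log2 fold change −0.57) and PSMD6 (−0.23), further structural subunits, were also lower, PSMD6 with an adjusted p of 0.00997 from edgeR close to the threshold. PSMD12 (−0.40), PSMD13 (−0.19) and PSMD7 (−0.073), the partner of PSMD14, did not pass. The calls of PSMD11 and PSMD6 were both lost without untreated replicate 2, treated replicate 1 or treated replicate 2, at edgeR adjusted p-values of 0.0124 to 0.0170 and 0.0134 to 0.0344, and that of PSMD6 also without untreated replicate 1, at 0.0147. PSMD6 lost its call in 10 of 16 settings in all, with a log2 fold change of −0.11 (edgeR adjusted p = 0.148) when total counts were used as scaling. PSMD12 passed in 4 of 16 settings, among them without untreated replicate 1 (log2 fold change −0.55, edgeR adjusted p = 1.88e-04). PSMD8 changed least, at 173, 165 and 146 CPM (not treated) against 163, 156 and 160.2 CPM (maltonis) (log2 fold change −0.016, SE 0.0715, edgeR adjusted p = 0.843), and its groups overlapped.

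In the base of the cap, which unfolds substrates, the largest decrease was that of a non-ATPase subunit. The sum of the 9 base genes went from 1210.4 ± 52.6 to 967 ± 35.9 CPM (SD, n = 3), a change of −20.1%, and that without PSMD1 from 962 ± 51.0 to 859 ± 32.9 CPM (SD, n = 3), a change of −10.7% (exact permutation test, p = 0.1 for both). Of the 9, 3 were lower (33.3%) and none higher, beside 32.1% and 31.9% of all genes, with a median log2 fold change of −0.21. With total counts as scaling 1 was lower, beside 27.6% of all genes. PSMD1, the large scaffold to which ubiquitin receptors dock, stood at 247, 248 and 252 CPM (not treated) against 105, 107 and 112 CPM (maltonis) (log2 fold change −1.20, SE 0.0538, edgeR adjusted p = 2.35e-07). The replicates were tight in both groups, the treated level was 0.434 of the untreated one, and the log2 difference was −1.23 in replicate 1 and −1.19 in replicates 2 and 3. Its counterpart PSMD2, the other large scaffold of the base, was at 196, 246 and 254 CPM (not treated) against 178, 199.96 and 198 CPM (maltonis) (log2 fold change −0.27, SE 0.101, edgeR adjusted p = 0.0361). The groups of PSMD2 overlapped, since its untreated replicate 1 was lower than replicates 2 and 3, and without that library the log2 fold change was −0.39 (edgeR adjusted p = 5.33e-04). PSMD4, a receptor that binds ubiquitin chains, was at 89.6, 104 and 94.1 CPM (not treated) against 84.6, 87.5 and 91.2 CPM (maltonis) (log2 fold change −0.13, SE 0.0702, edgeR adjusted p = 0.133), and the groups overlapped.

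Of the 6 ATPases, PSMC3 (log2 fold change −0.34) and PSMC2 (−0.21) were lower, the latter with an adjusted p of 0.00897 from edgeR's test near the threshold. The call of PSMC2 was lost without untreated replicate 1 or 2 or treated replicate 1 or 2, at edgeR adjusted p-values of 0.0105 to 0.0284, and in 10 of 16 settings in all, with a log2 fold change of −0.089 (edgeR adjusted p = 0.185) when total counts were used as scaling. PSMC1, PSMC4 and PSMC6 did not pass, with log2 fold changes of −0.15, 0.012 and −0.23. PSMC5 had the highest log2 fold change of the base, with levels of 72.2, 124 and 134 CPM (not treated) against 107, 137 and 136 CPM (maltonis) (log2 fold change 0.20, SE 0.207, edgeR adjusted p = 0.395). Its untreated replicate 1 stood far below all other libraries, the log2 fold change without it was −0.030, and the log2 difference was 0.57 in replicate 1 and 0.086 in replicates 2 and 3.

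**Figure D2:**
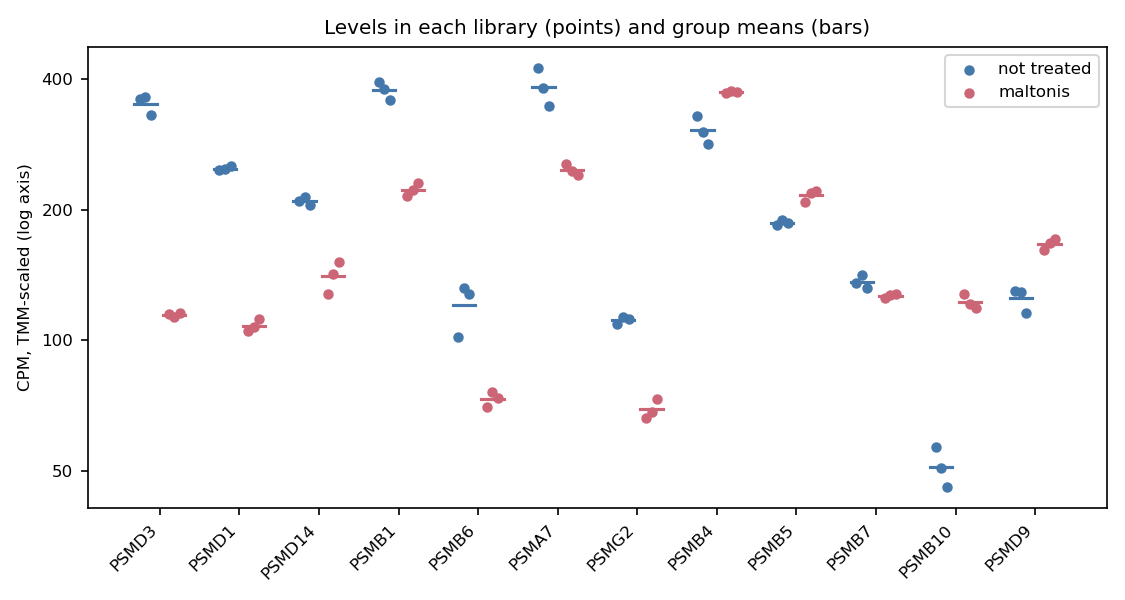
Scaled level (y axis, CPM, log axis) of 12 members (x axis) in each of 3 not treated and 3 maltonis-treated libraries, with bars at the group means. The 7 genes on the left, PSMD3 to PSMG2, were lower in every treated library than in any untreated one, and PSMB4, PSMB5, PSMB10 and PSMD9 were higher.

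In the beta rings, subunits moved in both directions and the sum did not separate the groups, going from 1648 ± 38.7 to 1608 ± 39.9 CPM (SD, n = 3) (exact permutation test, p = 0.4), with the direction reversed when total counts were used as scaling. Without the immunoproteasome subunit PSMB10 and the nearly uncounted PSMB11, the sum of PSMB1 to PSMB7 went from 1597 ± 36.7 to 1485 ± 44.4 CPM (SD, n = 3), a change of −6.98% with the groups fully apart (exact permutation test, p = 0.1). As a share of total counts, the same sum was 0.154, 0.155 and 0.150% (not treated) against 0.150, 0.156 and 0.158% (maltonis). On that scale the direction reversed and the groups overlapped. Of the 8 tested beta genes, 3 were higher and 2 lower, beside 31.9% and 32.1% of all genes, with a median log2 fold change of 0.00. Without untreated replicate 2 or 3 or treated replicate 2 or 3, 1 was higher, beside 26.4% to 28.9% of all genes. Among the cutting subunits, PSMB6, with caspase-like activity, stood at 102, 132 and 128 CPM (not treated) against 70.1, 76.1 and 73.4 CPM (maltonis) (log2 fold change −0.72, SE 0.0992, edgeR adjusted p = 1.75e-04). All treated libraries of PSMB6 were below the untreated ones, although the untreated replicate 1 was lower than replicates 2 and 3. PSMB5, with chymotrypsin-like activity, stood at 185, 189 and 187 CPM (not treated) against 208, 218 and 222 CPM (maltonis) (log2 fold change 0.21, SE 0.0527, edgeR adjusted p = 0.00610). This small rise separated the groups but lost its call in 7 of 16 alternative settings, among them each of the 3 without an untreated library and those without treated replicate 2 or replicate 3, whose adjusted p-values from edgeR were 0.0526 and 0.0507. PSMB7, with trypsin-like activity, was at 135, 142 and 132 CPM (not treated) against 125, 127 and 128 CPM (maltonis) (log2 fold change −0.11, SE 0.0542, edgeR adjusted p = 0.109). Its treated libraries were all below the untreated ones, by a small margin that did not pass the test.

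PSMB1, a non-catalytic beta subunit, had the largest decrease of the core, with 394, 381 and 359 CPM (not treated) against 215, 223 and 230.3 CPM (maltonis) (log2 fold change −0.76, SE 0.0597, edgeR adjusted p = 5.23e-06). PSMB4, also non-catalytic, was higher, with a log2 fold change of 0.29, and PSMB3 (0.047) and PSMB2 (−0.042) did not pass. The call of PSMB4 was lost without untreated replicate 2 or 3 and without treated replicate 2 or 3, at edgeR adjusted p-values of 0.0101 to 0.0161.

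PSMB10, which replaces PSMB7 in the immunoproteasome, had the largest increase of all members. It stood at 56.7, 50.6 and 45.9 CPM (not treated) against 128, 121 and 119 CPM (maltonis), a rise to 2.41 times the untreated level (log2 fold change 1.27, SE 0.0833, edgeR adjusted p = 1.83e-06). All treated libraries were above all untreated ones, whose mean was 51.1 ± 5.41 CPM (SD, n = 3), and the log2 difference was 1.17 in replicate 1 and 1.315 in replicates 2 and 3. Within each library, the ratio of PSMB10 to PSMB7 counts was 0.419, 0.358 and 0.348 without treatment and 1.02, 0.956 and 0.930 with maltonis, a log2 difference of 1.37. Of the immunoproteasome subunits left out of the set, PSMB9 rose from 9.0018, 10.7 and 11.4 CPM to 20.3, 21.4 and 22.4 CPM (log2 fold change 1.04, SE 0.101, edgeR adjusted p = 2.06e-05). PSMB8, in contrast, was at 90.4, 94.2 and 86.2 CPM (not treated) against 76.012, 80.1 and 79.0 CPM (maltonis) (log2 fold change −0.20, SE 0.0601, edgeR adjusted p = 0.0132), with all treated libraries below the untreated ones. PSMB8 passed as lower in 4 of 16 alternative settings, among them without untreated replicate 3 (−0.24, edgeR adjusted p = 0.00953). The count ratio of PSMB9 to PSMB6 went from 0.0884, 0.0805 and 0.0890 to 0.290, 0.282 and 0.305 (log2 difference 1.77), and that of PSMB8 to PSMB5 from 0.490, 0.498 and 0.461 to 0.365, 0.367 and 0.356 (log2 difference −0.41). The untreated and treated libraries did not overlap in any of these 3 ratios, which do not depend on the scaling between libraries. Over the 5 ratios tested, the two-sided exact permutation test gave p = 0.1 for each of the 3, the smallest possible, and 0.167 after Benjamini-Hochberg adjustment. PSMB10 shares 51.2% of its coding windows of 50 bases with another annotated gene at its own locus, so that its reads may in part belong to that gene.

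**Figure D3:**
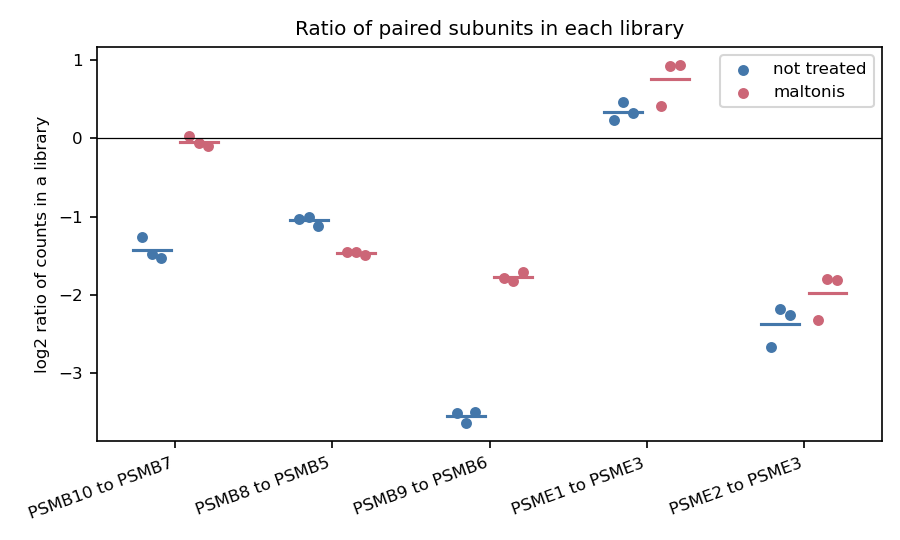
Log2 ratio of the counts of 2 paired subunits (y axis) within each of 3 not treated and 3 maltonis-treated libraries, with bars at the group means, for 5 pairs (x axis). The ratios of PSMB10 to PSMB7 and of PSMB9 to PSMB6 were higher in every treated library, and that of PSMB8 to PSMB5 was lower.

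In the alpha rings, which form the gate and the docking surface of the core, no member was higher. The sum of the 8 genes went from 1638 ± 25.2 to 1361 ± 84.1 CPM (SD, n = 3), a change of −16.9% (exact permutation test, p = 0.1). Of 7 tested genes, 3 were lower and 4 did not pass, beside 32.1% lower and 31.9% higher of all genes, with a median log2 fold change of −0.14. PSMA7 had the largest decrease, with 425, 383 and 348 CPM (not treated) against 255, 246 and 241 CPM (maltonis) (log2 fold change −0.64, SE 0.0781, edgeR adjusted p = 8.53e-05). PSMA3 (−0.57) and PSMA1 (−0.38) were also lower, and PSMA5 (−0.14), PSMA6 (−0.073) and PSMA4 (−0.050) did not pass. PSMA2 changed least, at 227, 252 and 260.2 CPM (not treated) against 204, 253 and 266 CPM (maltonis) (log2 fold change −0.033, SE 0.102, edgeR adjusted p = 0.778), with overlapping groups. The call of PSMA3 was lost in 7 of 16 alternative settings, without untreated replicate 2 or 3 and without any 1 of the treated libraries among them (edgeR adjusted p = 0.0132 to 0.0286). At their own loci, PSMA2 shares 100% of its coding windows of 50 bases with another annotated gene, PSMA1 81.8% and PSMA6 80.2%, so reads of these genes may in part belong to the other gene.

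**Figure D4:**
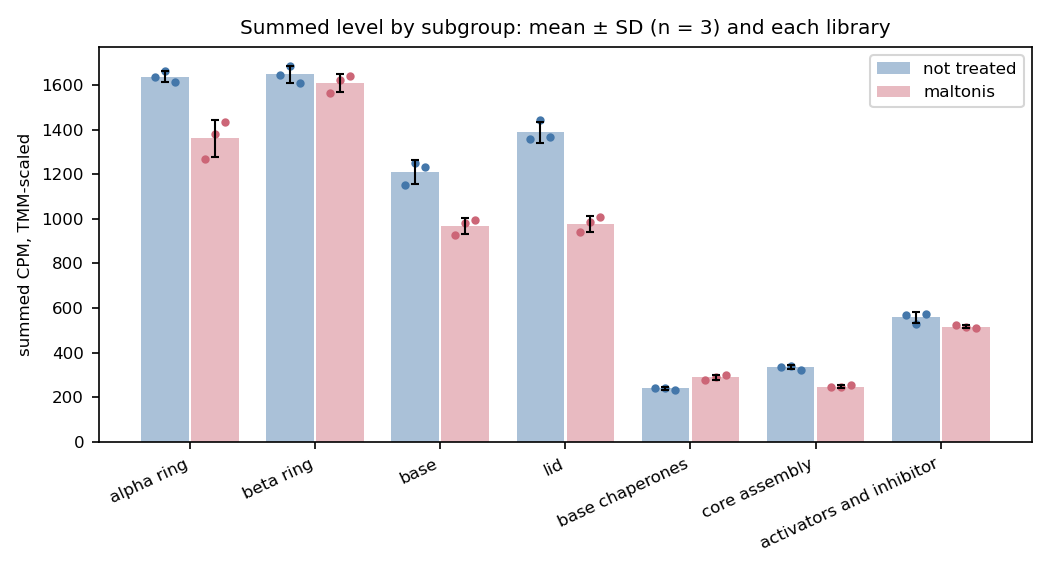
Summed scaled level (y axis, CPM, from 0) of each subcomplex (x axis) as mean ± SD of 3 libraries per group, with the single libraries as points. The lid went from 1388 to 977 CPM and the base from 1210.4 to 967 CPM, while the beta rings stayed within 1563 to 1687 CPM in all libraries.

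The summed level of the factors that assemble the core was lower after maltonis, and that of the base chaperones was higher. PSMG1 to PSMG4, which pair up to build the alpha ring, went in sum from 334 ± 9.38 to 247 ± 6.66 CPM (SD, n = 3), a change of −25.9% (exact permutation test, p = 0.1). The treated libraries of each of the 4 were below the untreated ones, beside 37.8% of all genes, and those of PSMG4 only barely so. PSMG2, the partner of PSMG1, stood at 109, 113 and 112 CPM (not treated) against 66.1, 68.3 and 73.2 CPM (maltonis) (log2 fold change −0.69, SE 0.0610, edgeR adjusted p = 1.15e-05). PSMG1 was lower (−0.37), while PSMG3 (−0.32, edgeR adjusted p = 0.0103) just missed the threshold. PSMG1 lost its call without untreated replicate 2, treated replicate 1 or treated replicate 2 (edgeR adjusted p = 0.0109 to 0.0131). PSMG3 passed in 7 of 16 alternative settings, among them without untreated replicate 3 (edgeR adjusted p = 0.00201). PSMG4 was at 28.4, 28.0 and 25.06 CPM (not treated) against 24.993, 24.0 and 24.9 CPM (maltonis) (log2 fold change −0.14, SE 0.0761, edgeR adjusted p = 0.120). Over the 16 alternative settings its log2 fold change ranged from −0.21 to −0.024.

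Of the base chaperones, which hold ATPases until the ring is complete, 2 of 3 were higher, beside 31.9% of all genes. Their sum went from 239 ± 5.53 to 289 ± 12.3 CPM (SD, n = 3), a change of 20.6% (exact permutation test, p = 0.1). PSMD9 stood at 130.1, 129 and 116 CPM (not treated) against 162, 168 and 171 CPM (maltonis) (log2 fold change 0.42, SE 0.0641, edgeR adjusted p = 3.50e-04). PSMD5 was higher as well (0.31), a call lost in 6 of 16 settings, 5 of which left out a library: untreated replicate 1 or 2 or any treated one (edgeR adjusted p = 0.0171 to 0.0692). PSMD10, also called gankyrin, was at 72.0, 70.3 and 69.2 CPM (not treated) against 62.4, 70.1 and 69.8 CPM (maltonis) (log2 fold change −0.062, SE 0.0662, edgeR adjusted p = 0.417), and its groups overlapped. Of the coding windows of PSMD9, 46.5% are shared with another annotated gene at the same locus.

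Among the activators and the inhibitor, only the inhibitor PSMF1 passed the test, beside 32.1% lower and 31.9% higher of all genes. With total counts as scaling PSMF1 did not pass (edgeR adjusted p = 0.0136), while PSME1 passed as higher with total counts (0.00274) and with upper-quartile scaling (0.00556). The sum of the 5 genes went from 558 ± 26.1 to 517 ± 7.44 CPM (SD, n = 3) (exact permutation test, p = 0.1), a decrease that reversed with total counts as scaling. PSMF1, which binds the core and is known as PI31, stood at 151, 140.1 and 140.2 CPM (not treated) against 121, 107.97 and 105 CPM (maltonis) (log2 fold change −0.37, SE 0.0703, edgeR adjusted p = 0.00131). PSME1 and PSME2 form the interferon-responsive 11S activator. PSME1 was at 161, 154 and 147 CPM (not treated) against 163, 175 and 181 CPM (maltonis) (log2 fold change 0.17, SE 0.0629, edgeR adjusted p = 0.0351), with all treated libraries above the untreated ones but not past the threshold. PSME2 was at 21.5, 24.7 and 24.9 CPM (not treated) against 24.7, 26.7 and 27.1 CPM (maltonis) (log2 fold change 0.14, SE 0.0834, edgeR adjusted p = 0.154). PSME3, which forms the nuclear 11S activator, was at 137, 112 and 118 CPM (not treated) against 123, 92.8 and 94.9 CPM (maltonis) (log2 fold change −0.24, SE 0.120, edgeR adjusted p = 0.103), and replicate 1 was the highest of each group. PSME3 was past the threshold in 4 of 16 alternative settings, among them without treated replicate 1 (log2 fold change −0.40, edgeR adjusted p = 0.00474). PSME4, the PA200 activator, was at 100.1, 97.0 and 144 CPM (not treated) against 92.7, 112 and 103 CPM (maltonis) (log2 fold change −0.15, SE 0.150, edgeR adjusted p = 0.384), with 1 high untreated library, replicate 3, without which the log2 fold change was 0.052. The groups of PSME2, PSME3 and PSME4 overlapped. The log2 count ratios of PSME1 and of PSME2 to PSME3 were higher with maltonis by 0.42 and 0.39, with p = 0.2 and p = 0.3 in the exact permutation test.

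Among 10 partners of the proteasome whose symbols lie outside the PSM families, 5 were lower and 2 higher, beside 32.1% and 31.9% of all genes. SHFM1, the older symbol of SEM1, encodes the smallest lid subunit, which clamps PSMD3 to PSMD6. It stood at 91.5, 116 and 107 CPM (not treated) against 15.7, 20.044 and 17.7 CPM (maltonis) (log2 fold change −2.55, SE 0.118, edgeR adjusted p = 2.72e-07), a larger decrease than that of any member, and the groups lay far apart. POMP, which matures the core (−0.65), the proteasome scaffold KIAA0368 (−0.68), the deubiquitinase UCHL5 (−0.83) and the ligase UBE3C (−0.49) were lower as well. PAAF1, a base chaperone, was at 22.4, 33.8 and 33.9 CPM (not treated) against 40.6, 51.5 and 51.5 CPM (maltonis) (log2 fold change 0.67, SE 0.163, edgeR adjusted p = 0.00518), and its groups did not overlap. AKIRIN2, which carries proteasomes into the nucleus, was also higher (0.48), and ADRM1 (0.36), USP14 (−0.29) and TXNL1 (0.016) did not pass. Leaving out 1 library ended the calls of UCHL5 (any but untreated replicate 1, edgeR adjusted p up to 0.0274), AKIRIN2 (untreated replicate 2 or any treated one, up to 0.03) and PAAF1 (treated replicate 2 or 3, up to 0.0340). ADRM1 passed in 4 of 16 alternative settings, among them without untreated replicate 1 (log2 fold change 0.51, edgeR adjusted p = 9.36e-04).

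In a list of 10 genes around NFE2L1, 3 were higher and 3 lower, close to the shares over all genes of 31.9% and 32.1%. NFE2L1 itself, named after its values were seen, stood at 204, 209 and 207 CPM (not treated) against 285, 274 and 269 CPM (maltonis) (log2 fold change 0.41, SE 0.0523, edgeR adjusted p = 1.03e-04), and its groups did not overlap. MAFG, a small MAF partner, had the highest log2 fold change, with levels of 117, 112 and 113 CPM (not treated) against 184, 185 and 177 CPM (maltonis) (log2 fold change 0.68, SE 0.0535, edgeR adjusted p = 5.42e-06). SYVN1, a ubiquitin ligase of the endoplasmic reticulum, was also higher (0.59), a call lost without untreated replicate 1 or 2 or treated replicate 1 or 3 (edgeR adjusted p = 0.0116 to 0.0281). MAFF, another small MAF, had the lowest log2 fold change, with levels of 7.56, 8.14 and 6.48 CPM (not treated) against 2.58, 2.59 and 2.88 CPM (maltonis) (log2 fold change −1.46, SE 0.133, edgeR adjusted p = 1.34e-05). NFE2L3 (−1.38) and DDI2, the protease that activates NFE2L1 (−0.66), were lower, and NGLY1, NFE2L2, SEL1L and MAFK did not pass.

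Genes that deliver substrates changed in both directions. ZFAND2A, a heat shock and arsenite inducible proteasome partner, rose from 19.9, 19.1 and 18.3 CPM to 57.4, 51.1 and 55.7 CPM (log2 fold change 1.52, SE 0.0749, edgeR adjusted p = 3.80e-07). UBQLN4, a shuttle that carries ubiquitinated proteins, fell from 37.3, 32.9 and 33.7 CPM to 17.7, 13.2 and 16.3 CPM (log2 fold change −1.14, SE 0.114, edgeR adjusted p = 2.33e-05). The shuttles RAD23B (log2 fold change −0.71) and UBQLN1 (−0.49) were lower, and NPLOC4 (0.47) and UFD1L (0.34), cofactors of the segregase VCP, were higher. RPS27A, which encodes a fusion of ubiquitin with a ribosomal protein, was at 235, 455 and 404 CPM (not treated) against 181, 306 and 319.6 CPM (maltonis) (log2 fold change −0.44, SE 0.268, edgeR adjusted p = 0.166), its replicate 1 was far below replicates 2 and 3 in both groups, and with the library code as a factor it passed (edgeR adjusted p = 3.37e-05). Of 8 symbols that could overlap a member or be mistaken for one, only PSMC3IP, a recombination factor, was in the tables (log2 fold change 1.61), and it is no proteasome gene.

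Levels of different members can be compared only per length, for which RPKM (reads per kilobase, also scaled to library size) was used. Per kilobase of merged exons, untreated levels of the 44 tested members ranged from 0.726 RPKM for PSMC1 to 225 RPKM for PSMB3, with a median of 39.0. Per coding length, the range was 3.39 RPKM for PSMC1 to 523 RPKM for PSMB1, with a median of 135, so the order of members depends on the length chosen. On the coding scale the medians were 293 RPKM for the alpha rings, 272 RPKM for the beta rings, 82.3 RPKM for the base and 124 RPKM for the lid. Per merged exon length they were 46.2, 94.6, 39.4 and 30.3 RPKM, so that the beta rings then exceeded the alpha rings and the base exceeded the lid. Within the core, PSMB10 was the lowest tested beta subunit at 60.6 RPKM, and PSMA6 the lowest tested alpha subunit at 91.8 RPKM.

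PSMC1, an ATPase of the base, stood out by its low level, at 5.97, 3.53 and 3.92 CPM (not treated) against 3.82, 4.06 and 3.83 CPM (maltonis). Of its coding windows of 50 bases, 98.7% also occur in a transcript of 11 annotated pseudogenes elsewhere in the genome (GENCODE version 29, GRCh38). PSMC6 shared 45.6% of its windows with 3 pseudogenes, PSMA6 30.6% with 3, PSME2 20.6% with 4 and PSMD4 20.5% with 1. Their levels per coding length ranged from 3.39 to 91.8 RPKM with a median of 29.7, against 20.6 to 523 RPKM with a median of 147 in the other 39 members. How reads that fit several places were counted is not given in the sources used here, so the levels and changes of these 5 genes are uncertain. PSMD3, PSMD1, PSMD14, PSMB1, PSMB6, PSMA7, PSMB10 and PSMG2 shared no coding window with a gene elsewhere.

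**Figure D5:**
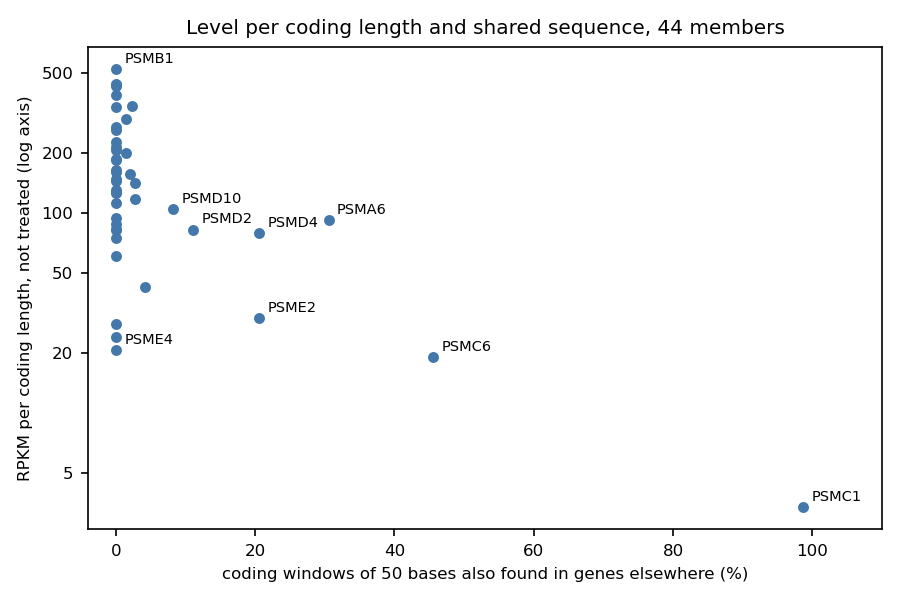
Untreated level per coding length (y axis, RPKM, log axis) against the percentage of coding windows of 50 bases that also occur in genes elsewhere (x axis) for the 44 tested members, each a point. PSMC1 lies at 98.7% and 3.39 RPKM, and the members without shared windows span 20.6 to 523 RPKM.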

How the data were processed

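RNA from NB4 cells was measured in 6 ribosomal RNA-depleted, stranded libraries, 3 per group. The deposited values are whole-number HTSeq counts per gene symbol, which the authors left without normalization. The submitters' processing notes name TopHat, Bowtie2, HTSeq and hg19, while the annotation and the strand setting are not given in the sources used here. Antisense and overlapping genes are therefore uncertain.

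Counts were fitted over all symbols with edgeR 4.0.16 in R 4.3.3 (TMM scaling, filterByExpr, quasi-likelihood test without covariates), after a test on simulated data. The simulated data held few changed genes and no effect of the library code. That test therefore does not show that the scaling or the FDR hold in these data. P-values were adjusted by Benjamini-Hochberg over the 13209 genes tested, and a gene was called at an FDR under 0.01. CPM use the TMM-scaled library size, and SE is the log2 fold change divided by the square root of the F statistic. Exon lengths come from GENCODE version 29 and matched 20195 symbols directly and 1463 by a synonym. Single values per library were compared by a two-sided exact permutation test.

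The members, subgroups and gene lists were chosen with earlier results of these data known. Values per library are given for the highest and lowest log2 fold change of each subgroup or list, the catalytic and ubiquitin-handling subunits, the activators, PSMB8 and PSMB9. Alternatives covered scaling, DESeq2 1.42.0, the likelihood ratio test, filters, the replicate block, the library code, libraries left out and thresholds. The fit of replicates 2 and 3 alone was chosen after seeing the data. Some genes of the lists are not reported here.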

Additional observations from a re-analysis of the deposited data

How the results depend on the processing

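Of the 20 called members, 10 (PSMA1, PSMA7, PSMB1, PSMB6, PSMB10, PSMD1, PSMD3, PSMD9, PSMD14 and PSMG2) were past the threshold in all 16 settings, 10 lost the call in at least 1, and none changed direction. Of the members without a call, 6 gained one in at least 1 setting and 13 changed direction in at least 1.

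The count of higher members was 3 without a filter on low counts, 0 beyond a fold change of 2.50 and 2 to 4 with 1 library left out, and that of lower members was 9 with total counts as scaling, 1 beyond that fold change and 10 to 15 with 1 library left out. Of all genes, 23.9% were higher without a filter and 27.6% lower with total counts. With 1 library left out, 26.4% to 31.9% of all genes were higher and 28.4% to 32.8% lower. The median log2 fold change of the members was −0.034 with total counts, −0.065 with upper-quartile scaling and −0.21 to −0.14 with 1 library left out. When the median log2 level of a subcomplex in each library replaced its sum, the log2 difference was −0.065 for the base chaperones, whose middle gene by level was PSMD10, and 0.085 for the beta rings, both reversed. With total counts the summed beta rings were at 0.083 and the activators with the inhibitor at 0.0091, both reversed. The mean share of PSMB1 to PSMB7 in total counts, 0.1532% untreated and 0.1547% treated, was reversed as well. The median untreated level was 135 RPKM with coding length.

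Log2 fold changes that reversed, all of them uncalled, were as follows. With total counts they were PSMA2 0.085, PSMA4 0.068, PSMA6 0.046, PSMB2 0.077, PSMB7 0.014, PSMD7 0.046, PSMD8 0.10, PSMD10 0.056, NGLY1 0.081 and UBA1 0.014. With upper-quartile scaling they were PSMA2 0.054, PSMA4 0.037, PSMA6 0.015, PSMB2 0.045, PSMD7 0.014, PSMD8 0.070, PSMD10 0.025 and NGLY1 0.049. With the stricter filter it was PSMD8 0.00087. In replicates 2 and 3 alone they were PSMA2 0.013, PSMC1 0.083, PSMD8 0.017, PSMD10 0.00096 and ZFAND5 −0.013. With 1 library left out, the ranges were PSMA2 −0.14 to 0.049, PSMA6 −0.17 to 0.0051, PSMB2 −0.16 to 0.019, PSMB3 −0.00059 to 0.061, PSMC1 −0.31 to 0.061, PSMC4 −0.061 to 0.073, PSMC5 −0.030 to 0.36, PSMD8 −0.092 to 0.024, PSME4 −0.26 to 0.052, TXNL1 −0.029 to 0.026, SEL1L −0.0071 to 0.076, ZFAND5 −0.0060 to 0.15 and UBB −0.40 to 0.056. The cause of these changes was not tested.

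With the replicate number as a block, 5 members were higher and 19 lower, beside 34.8% and 35% of all genes, with a median log2 fold change of −0.14. Libraries with the same number had correlations of 0.301, 0.0852 and 0.161 in their deviations from the group means, so the numbers were not taken to pair the libraries, and untreated replicate 2 correlated best with treated replicate 3. Leaving out 1 library uses the spread of the remaining ones. Precision is limited by 3 libraries per group and by reads shared with pseudogenes. Counting error is small at these depths for most members. It is larger for genes with few counts, such as PSMC1 (74 to 136 per library) and MAFF (50 to 87 with maltonis).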
